A study of Mus musculus with 9 samples.

Results

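The 32 genes described here encode the glucose and lactate transporters, the enzymes of glycolysis, regulators of glycolytic flux, the subunits and oxygen sensors of hypoxia-inducible factor (HIF) and 5 further HIF1 targets. They were chosen by name as genes of glycolysis and the hypoxia response, a known output of the mTORC1 kinase, and the counts of all transcripts of each gene were summed. The table held 54119 genes, of which 16273 passed the filter on low counts, and all 32 members were among them. RNA-seq had been performed on 9 libraries of total RNA from primary microglia of C57BL/6J mice, in 3 groups of 3 that had received siRNA against Tsc2, siRNA against Chd8 or a control siRNA. Apart from the siRNA, the labels give the groups the same cells and strain. The microglia were shaken off mixed glial cultures of whole embryonic brain, so other glia may be carried over, and siRNA lowers a transcript without deleting the gene. The study's results mention 3 days of LPS stimulation, its methods speak of RNA taken 3 days into the siRNA treatment, and no label names LPS.

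Glycolysis splits glucose into pyruvate in the cytosol and yields ATP without oxygen, and lactate dehydrogenase turns pyruvate into lactate, which monocarboxylate transporters carry out of the cell. HIF1 is a transcription factor whose alpha subunit is marked for destruction by prolyl hydroxylases while oxygen is present. When it is stable, it raises most glycolytic genes, and mTORC1, which the product of Tsc2 restrains, promotes the synthesis of HIF1 alpha. Activated microglia and macrophages are known for a shift towards glycolysis.

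The targeted transcripts were lower in their own groups. Chd8, a chromatin remodeller, was at 118, 97.4 and 93.6 CPM (normalised counts relative to the effective library size) in the control libraries and at 86.8, 44.5 and 38.3 CPM in the Chd8 siRNA libraries. Tsc2 was at 40.8, 39.9 and 38.9 CPM in control and at 24.6, 30.6 and 36.5 CPM in the Tsc2 siRNA libraries. Groups did not overlap in either case, and neither gene was called by edgeR's quasi-likelihood test (adjusted p = 1.00 for each). With the replicate number as a block, Chd8 was called (log2 fold change -0.93 ± 0.14 (SE, n = 3), edgeR adjusted p = 0.00777, and 0.00103 to 0.0821 when 1 library was left out) and Tsc2 was not (-0.39 ± 0.12 (SE, n = 3), edgeR adjusted p = 0.219). Library totals ranged from 16913448 to 33213801 counts. Microglial markers summed to between 2411 and 3252 CPM, and 9 of these 10 genes were above 3 counts in every library. The 8 astrocyte markers summed to 12.8 to 14.7 CPM in the libraries of replicate number 1, 26.2 to 29.7 CPM in number 2 and 57.1 to 109 CPM in number 3. Oligodendrocyte-lineage markers (7 genes) summed to 9.98 to 27.1 CPM, neuronal markers (6 genes) to 2.91 to 19.3 CPM and markers of fibroblasts and vessels (7 genes) to 16.9 to 72.8 CPM. None of these markers was at 0 in every library, and the neuronal gene Rbfox3 and the endothelial gene Cldn5 did not exceed 3 counts in any. In such bulk samples, fewer cells of a type and less RNA per cell cannot be told apart.

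The promoters of 4 members are shown with the short core that HIF binds marked in them, which was not used to choose the genes. They come from the members with the most matches (Ldha and Bnip3) and from the most variable flux regulator (Pfkfb3). The last is that of Egln3, the oxygen sensor that HIF itself induces. Each is the 250 bases before an annotated start in RefSeq (GRCm38.p6), read 5′ to 3′ on the gene's strand, and capitals mark ACGTG or GCGTG on either strand. A palindromic CACGTG counts as 2 overlapping matches. The windows are chr7:46845554-46845803 (+) for Ldha, chr7:138909507-138909756 (-) for Bnip3, chr2:11502091-11502340 (-) for Pfkfb3 and chr12:54203875-54204124 (-) for Egln3.
Ldha: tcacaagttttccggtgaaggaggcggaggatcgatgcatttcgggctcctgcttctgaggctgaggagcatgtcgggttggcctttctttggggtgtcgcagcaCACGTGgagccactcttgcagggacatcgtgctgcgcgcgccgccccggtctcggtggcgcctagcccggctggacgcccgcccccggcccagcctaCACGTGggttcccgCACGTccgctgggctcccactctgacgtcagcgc
Bnip3: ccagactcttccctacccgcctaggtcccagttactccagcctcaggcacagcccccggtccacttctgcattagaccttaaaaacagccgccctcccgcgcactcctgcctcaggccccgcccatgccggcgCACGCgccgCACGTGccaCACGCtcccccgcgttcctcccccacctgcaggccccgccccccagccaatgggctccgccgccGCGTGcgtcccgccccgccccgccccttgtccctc
Pfkfb3: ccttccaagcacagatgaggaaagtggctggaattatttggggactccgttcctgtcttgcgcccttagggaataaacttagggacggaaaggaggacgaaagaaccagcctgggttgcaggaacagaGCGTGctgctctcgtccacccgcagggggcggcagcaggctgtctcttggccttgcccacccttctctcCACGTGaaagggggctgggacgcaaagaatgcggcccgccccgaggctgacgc
Egln3: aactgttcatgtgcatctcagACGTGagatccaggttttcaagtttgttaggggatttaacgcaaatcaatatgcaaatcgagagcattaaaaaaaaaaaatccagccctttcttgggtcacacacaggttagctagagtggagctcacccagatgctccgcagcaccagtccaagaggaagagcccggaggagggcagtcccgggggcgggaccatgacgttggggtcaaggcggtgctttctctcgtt

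The Ldha and Bnip3 windows held 5 matches each, the Pfkfb3 window 3 and the Egln3 window 1. RefSeq promoters were found for 31 of the 32 members, all but Ndrg1, and in 27 of them (87.1%) the window nearest the start of the most counted transcript held at least 1 match. The windows of Gpi1, Tpi1, Pkm and Vegfa held neither motif. For Pfkfb4 the nearest window was 25478 bases from that start. Among all 32851 windows in the table, 38.6% held a match, and among the first listed windows of 10717 tested genes 54.3% did. The median GC content was 62.8% in the members' windows, 52.4% in all windows and 59.2% in those of tested genes. A match is a description of letters and not of a bound site.

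Levels across genes were compared as normalised CPM per kilobase of transcript. In the control group, Pkm, which makes pyruvate at the last step of glycolysis, had the highest mean level (463 ± 131 (SD, n = 3)). It was followed by the aldolase Aldoa (385 ± 17), by Pfkfb3 (295 ± 248), which makes the activator of phosphofructokinase, and by Gapdh (294 ± 14.2). Neighbours in this order were not set apart by their spread: the SDs of Pkm and Pfkfb3 exceeded the gaps to the next gene. The lowest were Egln3 (0.284 ± 0.159), Ankrd37 (1.11 ± 0.481), the muscle-type phosphofructokinase Pfkm (1.17 ± 0.479) and the growth factor Vegfa (1.37 ± 0.335), all on the same per-kilobase scale. In 7 members at least 1 library had fewer than 100 counts, and Egln3 and Ankrd37 fell below 10 counts in at least 1 library.

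**Figure D1:**
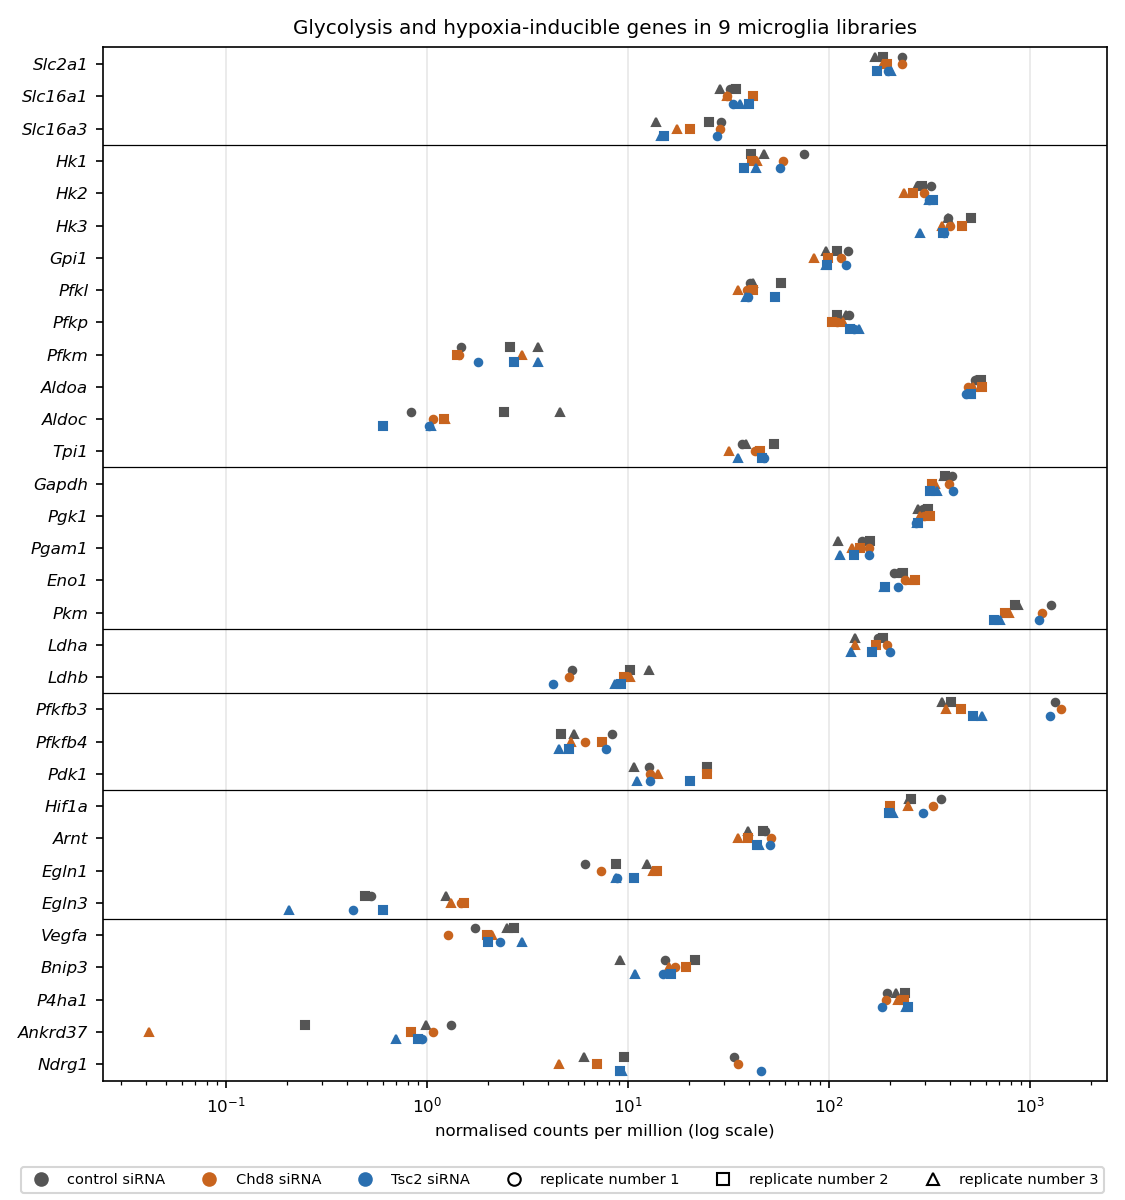
Normalised CPM (log axis, not divided by length) of the 32 members, in the order of their roles, with 1 point for each of the 9 libraries, coloured by siRNA and shaped by replicate number. Pkm and Pfkfb3 reach 1276 and 1430 CPM, Egln3 and Ankrd37 at most 1.53 and 1.32 CPM, and the number 1 libraries stand apart for Pfkfb3 and Ndrg1.

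Which genes of this pathway responded to the lowering of either transcript was asked by comparing each knockdown with control. In these comparisons Chd8 was at 0.55-fold and Tsc2 at 0.767-fold of its control level. No member was called in either comparison when a call required both an FDR under 0.05 and a change of at least 1.5-fold. For Chd8 siRNA 0 of 32 members were called, against 0% of the 16273 genes tested, and 0 members had an unadjusted p under 0.05 where 3.82% of all genes did. For Tsc2 siRNA 0 of 32 members were called, against 0% of all genes, and 1 member, Aldoc, had an unadjusted p under 0.05 where 2.61% of all genes did. DESeq2's Wald test and limma-voom also called 0 members in each comparison. The median log2 fold change of the members was -0.08 under Chd8 siRNA, and 0.04 without Chd8 siRNA replicate 3 or control replicate 1. Under Tsc2 siRNA it was -0.07, and -0.00 without Tsc2 siRNA replicate 3. The median of all genes was -0.02 in each comparison. Values were below 0 for 20 members under Chd8 siRNA and 21 under Tsc2 siRNA, and 52.2% and 52.4% of all genes were below 0.

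The width of the intervals sets what these comparisons can show. The 95% interval lay within 1.5-fold in either direction for 15 members in each comparison, against 20.7% and 22.5% of all genes. For the other 17 members of each comparison the interval reached past 1.5-fold in at least 1 direction. With the replicate number as a block, the interval lay within 1.5-fold for 24 members in each comparison, against 34% and 35.9% of all genes, and again 0 members were called. The block raised the calls among all genes to 0.535% for Chd8 siRNA and 0.387% for Tsc2 siRNA. With the block, an unadjusted edgeR p under 0.05 was found under Chd8 siRNA for 3 members (9.38%) and 12.8% of all genes. The 3 were Pfkl and Pkm, with values below 0, and Eno1, above 0. Under Tsc2 siRNA it was found for 7 members (21.9%) and 10.7% of all genes. Hk1, Hk3, Aldoc, Pkm and Hif1a were below 0 and Pfkp and Pfkfb3 above 0.

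**Figure D2:**
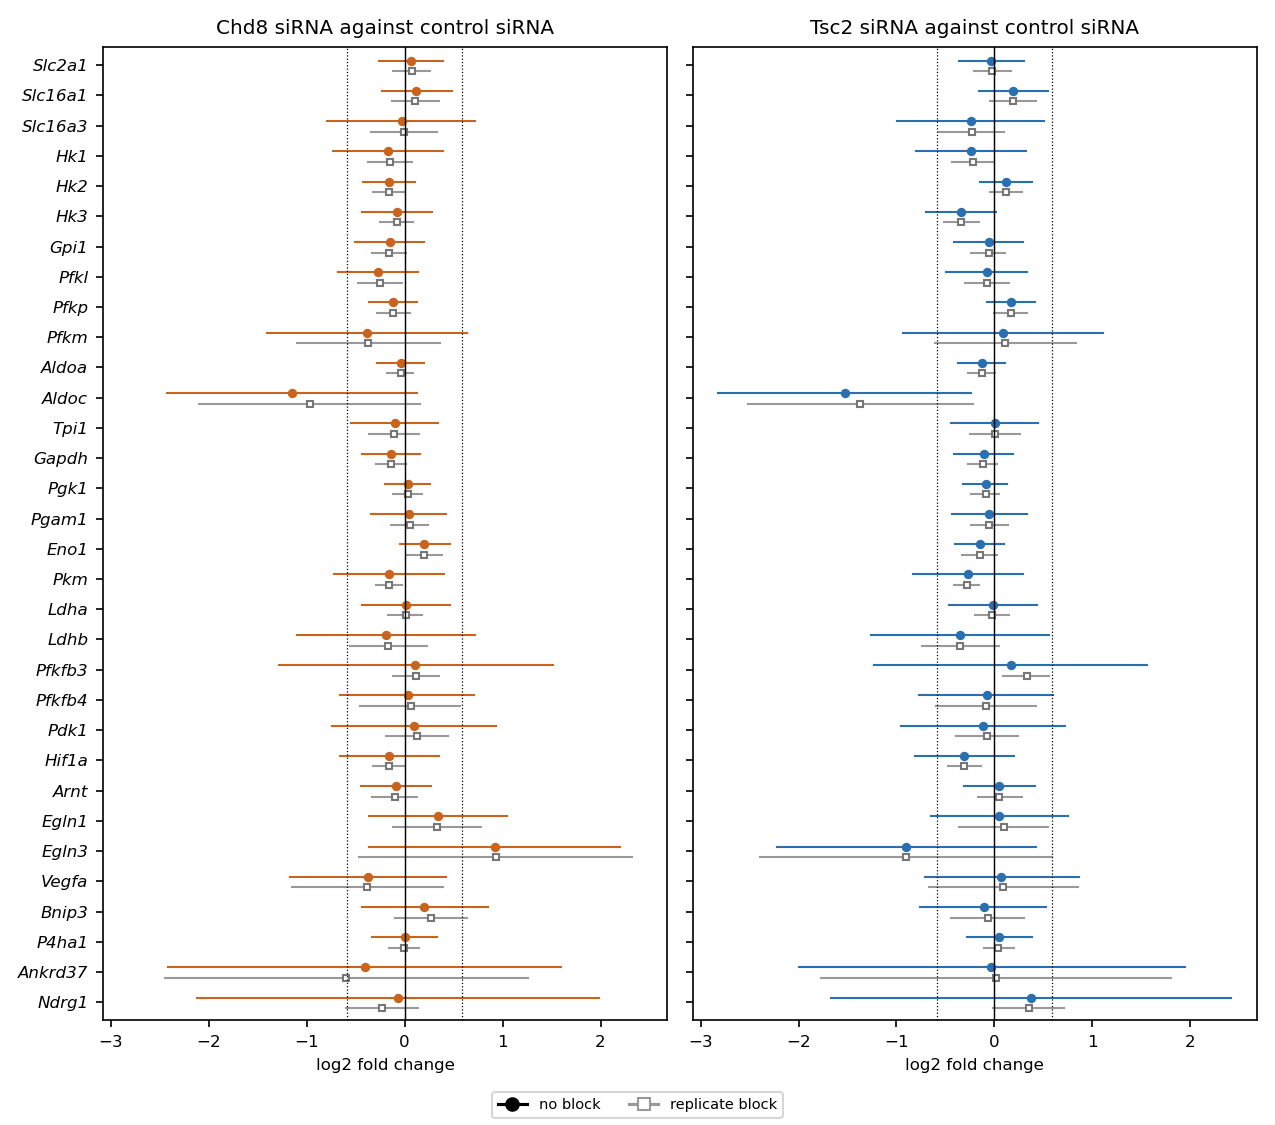
Log2 fold change (x axis) of each member for Chd8 siRNA (left) and Tsc2 siRNA (right) against control siRNA, with 95% intervals from edgeR without the block (filled circles) and with the replicate block (open squares), n = 3 libraries a group. Dotted lines mark a fold change of 1.5. The intervals are narrow for Pgk1, Aldoa and P4ha1 and wide for Aldoc, Egln3, Ankrd37 and, without the block, Ndrg1 and Pfkfb3.

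Glucose enters through Slc2a1, the transporter GLUT1, which was at 230, 186 and 169 CPM in control, 231, 194 and 186 CPM in Chd8 siRNA and 197, 173 and 203 CPM in Tsc2 siRNA libraries. The ranges overlapped, with log2 fold changes of 0.06 (95% interval -0.26 to 0.39) and -0.03 (-0.36 to 0.30). Among the lactate carriers, Slc16a1 was at 28.6 to 34.4 CPM in control, 30.9 to 41.6 CPM in Chd8 siRNA and 33.2 to 39.8 CPM in Tsc2 siRNA libraries. Slc16a3, the exporter that HIF1 induces, ranged from 13.7 to 29.1 CPM over the 9 libraries and was not called for either siRNA.

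Hexokinases trap glucose as its phosphate. Under Chd8 siRNA all 10 members from hexokinase to triosephosphate isomerase had log2 fold changes below 0, from -1.15 to -0.04, and none passed the test (lowest unadjusted p in edgeR = 0.0732). The lowest value is that of Aldoc, which moved to -0.45 without control replicate 3. The count below 0 was 10 under each of the other scalings, filters and tests, and 8 to 10 when 1 library was left out, being 8 without Chd8 siRNA replicate 3 or control replicate 2. Under Tsc2 siRNA 6 of these 10 were below 0. Hk2, the inducible hexokinase bound to mitochondria, was at 320, 290 and 273 CPM in control, 295, 260 and 235 CPM in Chd8 siRNA and 314, 327 and 315 CPM in Tsc2 siRNA libraries. Its Tsc2 siRNA libraries all lay above its Chd8 siRNA libraries, while the control range overlapped both. Hk3, the hexokinase of myeloid cells, was at 390, 510 and 391 CPM in control and at 371, 370 and 282 CPM in Tsc2 siRNA libraries. These groups did not overlap, and the difference of -0.34 ± 0.16 (SE, n = 3) on the log2 scale was not called (edgeR adjusted p = 1.00, and 0.085 with the block). Its log2 value ranged from -0.40 to -0.19 when 1 library was left out, and its blocked adjusted p in edgeR from 0.00749 to 0.519, under 0.05 in 2 of 6 fits (without replicate 1 of Tsc2 siRNA or of control).

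Phosphofructokinase makes the committed step of glycolysis. Pfkp, its platelet form, was at 125, 110 and 122 CPM in control, 110, 103 and 117 CPM in Chd8 siRNA and 133, 127 and 141 CPM in Tsc2 siRNA libraries. The Tsc2 siRNA libraries lay above all others. The log2 fold change against control was 0.17 (95% interval -0.08 to 0.41, edgeR adjusted p = 1.00). Pfkl, the liver form, was at 35 to 57.3 CPM over the 9 libraries and its groups overlapped.

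Aldolase cleaves the sugar into its 3-carbon pieces. Aldoa was at 529, 570 and 537 CPM in control and 479, 508 and 504 CPM in Tsc2 siRNA libraries, without overlap, a log2 difference of -0.13 ± 0.11 (SE, n = 3, edgeR adjusted p = 1.00). Aldoc, the form of astrocytes and neurons, was at 0.83, 2.4 and 4.59 CPM in control, 1.07, 1.21 and 1.23 CPM in Chd8 siRNA and 1.02, 0.602 and 1.05 CPM in Tsc2 siRNA libraries. Its log2 fold change for Tsc2 siRNA was -1.53 ± 0.58 (SE, n = 3, edgeR adjusted p = 1.00) and moved to -0.83 without control replicate 3. The library with the highest Aldoc, control replicate 3, also had the highest astrocyte marker sum (109 CPM, against 14.7 and 26.4 CPM in the other control libraries). Its neuronal marker sum (19.3 CPM, against 4.56 and 6.22 CPM) and its fibroblast and vessel marker sum (72.8 CPM, against 21.8 and 35.9 CPM) were also the highest of the control libraries. The part of RNA from these cells in this difference was not tested.

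The later steps of the pathway are where ATP is made, and 0 of these 5 members were called. Gapdh and Pkm had log2 fold changes below 0 in both knockdowns, from -0.27 to -0.11. Eno1, the main enolase, was at 211, 232 and 220 CPM in control, 238, 268 and 258 CPM in Chd8 siRNA and 220, 189 and 188 CPM in Tsc2 siRNA libraries. Every Chd8 siRNA library was above every other library. Against the same controls the log2 fold change was 0.20 ± 0.11 under Chd8 siRNA and -0.15 ± 0.11 under Tsc2 siRNA (SE, n = 3), neither called. Under Tsc2 siRNA all 5 lower members were below 0, from -0.27 to -0.05 on the log2 scale, with 0 called. That count was 4, with Pgam1 above 0, without Tsc2 siRNA replicate 3 or control replicate 2. Pgk1, which makes the first ATP, was at 293, 309 and 278 CPM in control and 271, 278 and 275 CPM in Tsc2 siRNA libraries, a log2 difference of -0.09 with a 95% interval of -0.32 to 0.13. Gapdh, often used as a reference gene, was at 373 to 410 CPM in control, 324 to 393 CPM in Chd8 siRNA and 316 to 414 CPM in Tsc2 siRNA libraries.

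Pkm was at 1276, 838 and 872 CPM in control, 1140, 749 and 785 CPM in Chd8 siRNA and 1109, 659 and 706 CPM in Tsc2 siRNA libraries, in the order of replicate numbers 1 to 3. Within each number the order was control, then Chd8 siRNA, then Tsc2 siRNA, although the groups overlapped because the number 1 libraries were higher. The log2 fold change for Tsc2 siRNA was -0.27 ± 0.25 (SE, n = 3, edgeR adjusted p = 1.00). With the block it was -0.28 ± 0.06 (SE, n = 3, edgeR adjusted p = 0.0457), below the fold change of 1.5 and hence not called, and 0.639% of all genes passed that FDR without the fold threshold. This adjusted p from edgeR changed with the libraries kept: with the block it was between 0.0162 and 0.332 when 1 library was left out. It was under 0.05 in 1 of the 6 fits, the fit without Tsc2 siRNA replicate 1. The log2 fold change in these fits stayed between -0.33 and -0.25.

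Pkm transcripts differ by a pair of mutually exclusive exons of 167 bases, which give the M1 and M2 forms of pyruvate kinase. The M2 form can be switched between a more and a less active state and is the main form of proliferating and activated cells. The exons are shown because the reads that tell the forms apart come from here, at chr9:59675029-59675195 (+) for the M1 exon of Pkm-202 and chr9:59675568-59675734 (+) for the M2 exon of Pkm-201, from GENCODE release 21 on mm10. Capitals mark the 64 positions at which they differ when laid side by side without gaps, and the other 103 (61.7%) are identical.
M1 exon: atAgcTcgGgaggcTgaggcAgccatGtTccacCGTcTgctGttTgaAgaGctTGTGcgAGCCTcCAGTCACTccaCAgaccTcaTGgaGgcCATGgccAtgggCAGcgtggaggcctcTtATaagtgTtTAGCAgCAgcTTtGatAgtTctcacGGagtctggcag
M2 exon: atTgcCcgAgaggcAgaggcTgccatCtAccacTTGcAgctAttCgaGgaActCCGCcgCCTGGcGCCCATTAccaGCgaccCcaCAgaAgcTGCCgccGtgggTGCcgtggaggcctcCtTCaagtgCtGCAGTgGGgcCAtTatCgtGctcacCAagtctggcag

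The transcript with the M1 exon took 12.6%, 11.4% and 12.6% of the counts of both transcripts in control libraries. In Chd8 siRNA libraries it took 13.8%, 14.2% and 13.3%, and in Tsc2 siRNA libraries 11.5%, 12.9% and 13.3%. The M2 form was the major form in all 9 libraries. The Chd8 siRNA share lay above the control share without overlap, 13.8% ± 0.449 against 12.2% ± 0.711 (SD, n = 3), with p = 0.1 in a two-sided exact permutation test, the smallest that 3 libraries against 3 allow. For Tsc2 siRNA, at 12.6% ± 0.923 (SD, n = 3), the exact permutation p was 0.5. Both comparisons were chosen after the data were examined. Of all Pkm counts, 87.9% to 95.1% fell on these transcripts, and salmon's split of reads between them is an estimate.

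Lactate dehydrogenase was mostly Ldha, the form that HIF1 induces, at 176, 186 and 135 CPM in control, 193, 172 and 135 CPM in Chd8 siRNA and 201, 164 and 128 CPM in Tsc2 siRNA libraries. The log2 fold changes were 0.01 (95% interval -0.44 to 0.46) and -0.01 (-0.46 to 0.44). Ldhb, the form that favours pyruvate, was at 4.23 to 12.7 CPM. Among the flux regulators, Pfkfb3 was at 1327, 402 and 365 CPM in control, 1430, 453 and 383 CPM in Chd8 siRNA and 1255, 519 and 576 CPM in Tsc2 siRNA libraries. Its level followed the replicate number, and the log2 fold changes of 0.11 ± 0.62 and 0.17 ± 0.62 (SE, n = 3) were smaller than their errors. They ranged from -0.74 to 0.98 and from -0.35 to 1.03 when 1 library was left out, and turned below 0 without replicate 1 of the knockdown or without control replicate 2 or 3. With the block, the value under Tsc2 siRNA was 0.33 ± 0.11 (SE, n = 3, edgeR adjusted p = 0.267, and 0.0042 to 0.844 when 1 library was left out), not called. Pdk1, which closes pyruvate dehydrogenase to pyruvate, was at 12.7, 24.6 and 10.7 CPM in control, 12.8, 24.6 and 14 CPM in Chd8 siRNA and 12.9, 20.2 and 11.1 CPM in Tsc2 siRNA libraries. Pfkfb4, the paralogue of Pfkfb3, was at 4.51 to 8.33 CPM, with 42.4% of its counts on a transcript that is annotated as processed and not as coding. On coding transcripts alone its log2 fold change was -0.73 for each siRNA, against 0.03 for Chd8 siRNA and -0.08 for Tsc2 siRNA on all transcripts, and it was not called on either.

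Hif1a, the oxygen-regulated subunit, was at 362, 254 and 251 CPM in control, 329, 200 and 248 CPM in Chd8 siRNA and 293, 199 and 209 CPM in Tsc2 siRNA libraries. It was lower than control at each replicate number in both knockdowns, by little for Chd8 siRNA in number 3. The log2 fold change of -0.31 ± 0.23 under Tsc2 siRNA (SE, n = 3, edgeR adjusted p = 1.00, and 0.0997 with the block) was not called. Nor was that of -0.16 ± 0.23 under Chd8 siRNA (SE, n = 3, edgeR adjusted p = 0.389 with the block). These values are transcript levels, while HIF1 alpha is chiefly regulated as a protein. Its partner Arnt was at 35.3 to 51.4 CPM, with log2 fold changes of -0.09 (95% interval -0.45 to 0.27) and 0.05 (-0.31 to 0.41).

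The prolyl hydroxylase Egln1 was at 6.07, 8.74 and 12.4 CPM in control, 7.3, 13.9 and 13.3 CPM in Chd8 siRNA and 8.84, 10.7 and 8.67 CPM in Tsc2 siRNA libraries, and its groups overlapped. Egln3, the hydroxylase induced by HIF, was at 0.528, 0.493 and 1.24 CPM in control. It was at 1.47, 1.53 and 1.32 CPM in Chd8 siRNA and at 0.427, 0.602 and 0.205 CPM in Tsc2 siRNA libraries. All Chd8 siRNA libraries lay above all other libraries, on 7 to 44 counts a library. The log2 fold change was 0.92 (95% interval -0.36 to 2.20) for Chd8 siRNA and -0.90 (-2.22 to 0.42) for Tsc2 siRNA, edgeR adjusted p = 1.00 for each. Without control replicate 3 these values moved to 1.49 and -0.33.

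Of the other HIF1 targets, Vegfa was at 1.27 to 2.96 CPM, the mitophagy receptor Bnip3 at 9.1 to 21.4 CPM and the collagen hydroxylase subunit P4ha1 at 184 to 246 CPM. P4ha1 had narrow intervals around 0, with log2 fold changes of -0.00 (95% interval -0.33 to 0.33) and 0.05 (-0.28 to 0.38). Ankrd37 was at 0.0411 to 1.32 CPM, with 58.71% of its counts on transcripts with a retained intron. Ndrg1, a stress-response gene, was at 33.6, 9.54 and 6.05 CPM in control, 35.2, 7.02 and 4.52 CPM in Chd8 siRNA and 45.6, 9.07 and 9.31 CPM in Tsc2 siRNA libraries. In each group 1 library, that of replicate number 1, was far above the other 2.

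**Figure D3:**
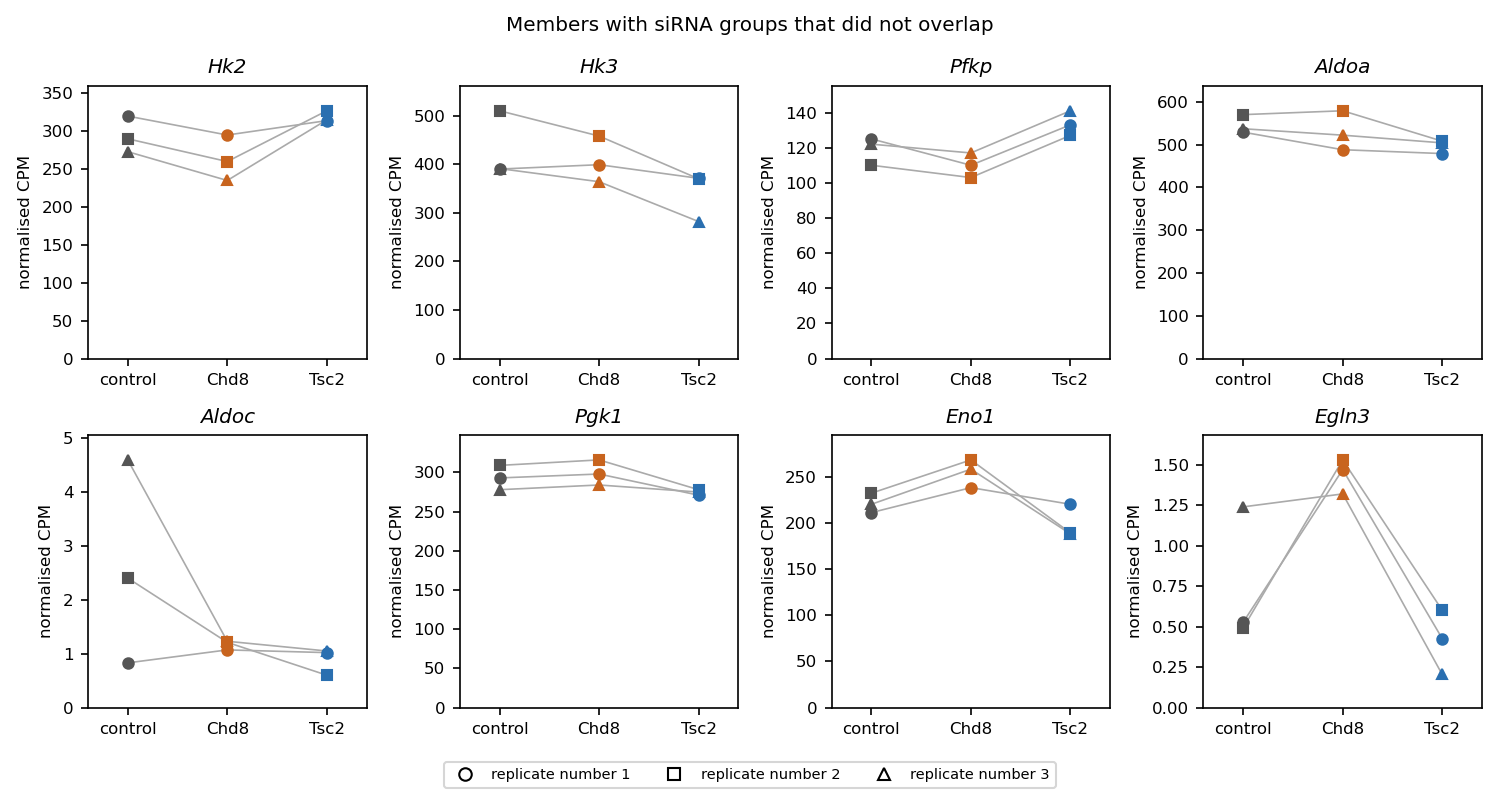
Normalised CPM (y axis, from 0) of the 8 members whose groups did not overlap in at least 1 of the 3 comparisons, by siRNA (x axis), with lines joining libraries of the same replicate number. Egln3 and Eno1 are highest in all Chd8 siRNA libraries, Pfkp in all Tsc2 siRNA libraries, and the high Aldoc values are those of control replicates 2 and 3.

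The groups did not overlap for 2 members in the Chd8 siRNA comparison (Eno1 and Egln3), where 9.09% of all genes did not overlap. In the Tsc2 siRNA comparison they did not overlap for 4 members (Hk3, Pfkp, Aldoa and Pgk1), where 8.11% of all genes did not. For Pgk1 the nearest libraries of the 2 groups both round to 278 CPM. Out of 32 members, these are 6.25% and 12.5%. Set directly against each other, Tsc2 siRNA and Chd8 siRNA libraries did not overlap for 6 members (18.8%), with 8.44% of all genes as background. These were Hk2 and Pfkp, higher in Tsc2 siRNA, and Aldoc, Pgk1, Eno1 and Egln3, higher in Chd8 siRNA. In this comparison 0 members were called, as were 0% of all genes and, with the block, 0 members and 0.221% of all genes. An unadjusted p under 0.05 was found for 4 members (12.5%) and 3.1% of all genes, and with the block for 6 members (18.8%) and 10.7% of all genes. The largest of the 4 was Egln3 (log2 difference -1.82, 95% interval -3.15 to -0.49), followed by Eno1 (-0.35, -0.61 to -0.10), Pfkp (0.28, 0.04 to 0.53) and Hk2 (0.27, 0.01 to 0.54), each at an edgeR adjusted p of 1.00. In the blocked fit the adjusted p from edgeR was 0.317 for Egln3, 0.108 for Eno1 and 0.139 for Pfkp and for Hk2. When 1 library was left out of that fit, it ranged from 0.00898 to 0.569 for Eno1 and from 0.0276 to 0.662 for Hk2, under 0.05 in 1 of 6 fits each, and was above 0.05 in all 6 fits for Egln3 and Pfkp.

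The members differed more between replicate numbers than between siRNAs. Replicate number held a median of 64.3% of a member's variance in log2 CPM and siRNA 14.5%, beside 41.9% and 18.0% for all genes. The share of the number exceeded that of the siRNA in 26 of 32 members (81.2%) and in 67.7% of all genes. In edgeR's test of the replicate number with the siRNA kept in the fit, chosen after the data were examined, 9 members (28.1%) were called at an FDR of 0.05 and a span of 1.5-fold, beside 17.3% of all genes. These were Ndrg1, Pfkfb3, Pdk1, Slc16a3, Hif1a, Pkm, Ldhb, Hk1 and Bnip3.

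The number 1 libraries carried the highest levels of several members. Ndrg1 spanned 5.87-fold between replicate numbers (means of 38.1, 8.54 and 6.63 CPM, edgeR adjusted p = 3.35e-08) and Pfkfb3 3.1-fold (1337, 458 and 441 CPM, edgeR adjusted p = 3.17e-08). Pkm spanned 1.57-fold (1175, 749 and 788 CPM), Hk1 1.58-fold (63.7, 40 and 44.9 CPM) and Hif1a 1.51-fold (328, 217 and 236 CPM), each highest in number 1. All number 1 libraries lay above all other libraries for 9 members (28.1%) and for 9.64% of all genes: Slc16a3, Hk1, Gpi1, Gapdh, Pkm, Pfkfb3, Hif1a, Arnt and Ndrg1. All number 1 libraries were lowest for Ldhb and P4ha1 (6.25% of members, 9.21% of all genes), and Ldhb averaged 4.87, 9.63 and 10.5 CPM. Number 2 libraries were all highest for Pfkl and Pdk1 (6.25% of members, 4.68% of all genes) and all lowest for Hk1 (3.12% of members, 3.63% of all genes). For Pfkl the nearest libraries both round to 41.8 CPM, and Pdk1 averaged 12.8, 23.1 and 12 CPM in numbers 1 to 3. Number 3 libraries were all highest for Pfkm (3.12% of members, 5.36% of all genes) and all lowest for Gpi1, Pgam1 and Ldha (9.38% of members, 3.15% of all genes). Astrocyte marker sums were lowest in number 1 and highest in number 3, and microglial marker sums were higher in all number 1 libraries (3057 to 3252 CPM) than in all number 3 libraries (2411 to 2948 CPM). Sums of fibroblast and vessel markers were 16.9 to 21.8 CPM in number 1 and 32 to 72.8 CPM in number 3 libraries, and neuronal sums 2.91 to 4.56 CPM and 5.8 to 19.3 CPM. Oligodendrocyte-lineage sums were lowest in the number 3 libraries (9.98 to 17.7 CPM). Their part in these differences was not tested. The methods describe replicates as cultures of distinct brains and do not say what libraries of the same number share.

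**Figure D4:**
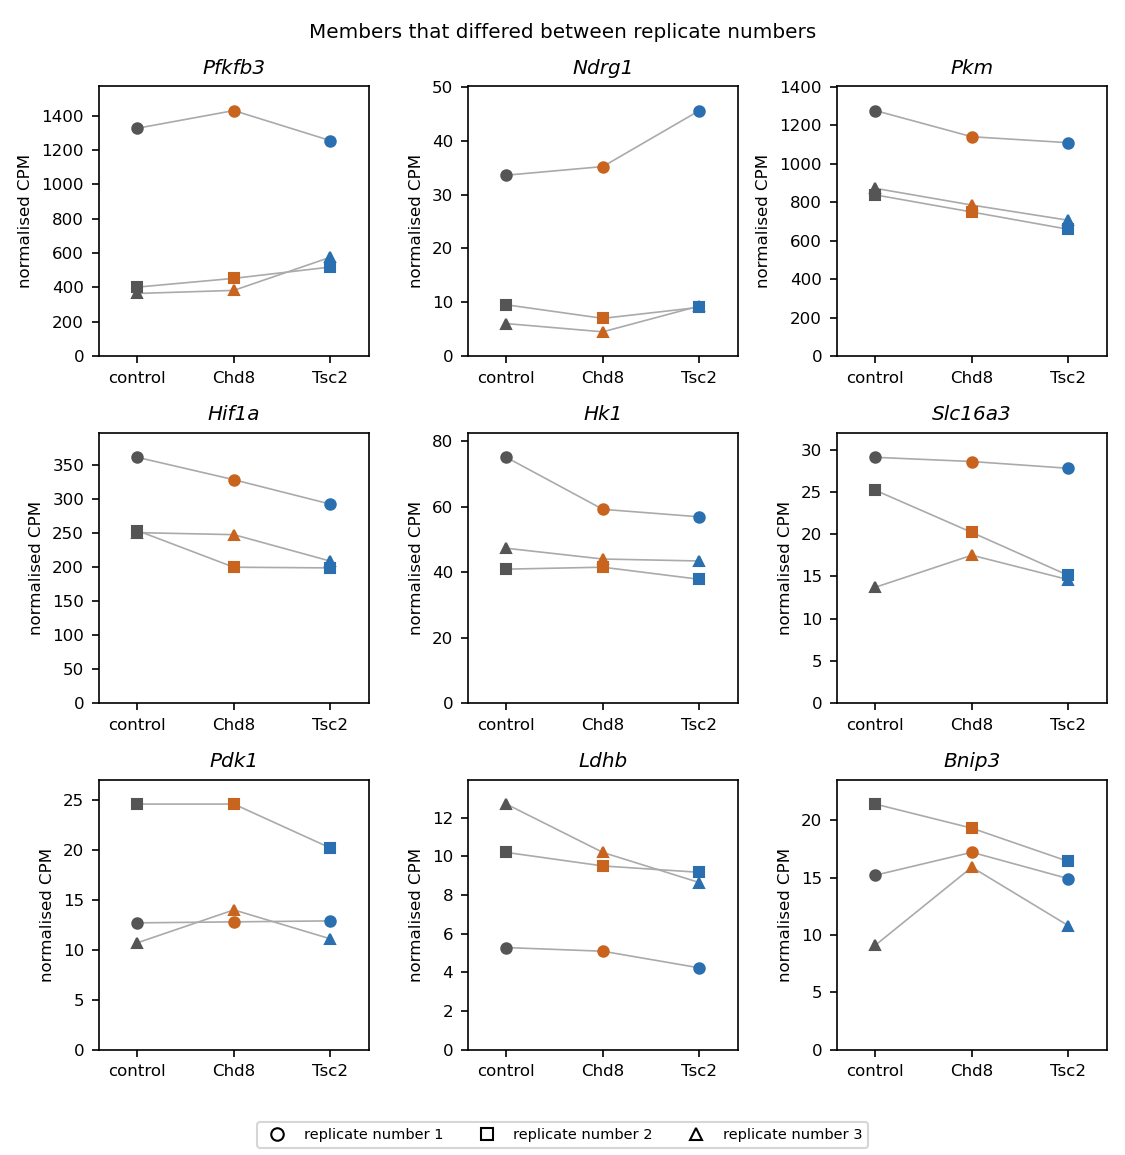
Normalised CPM (y axis, from 0) of the 9 members called between replicate numbers, by siRNA (x axis), with lines joining the libraries of the same number. The number 1 line lies above the others for Pfkfb3, Ndrg1, Pkm, Hif1a, Hk1 and Slc16a3, below them for Ldhb, and the number 2 line is highest for Pdk1.

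Isozyme use was asked within families, on counts divided by transcript length. Hk3 took 67.2% ± 4.97 of hexokinase counts in control, 69.9% ± 4.09 in Chd8 siRNA and 62.4% ± 3.37 in Tsc2 siRNA libraries (SD, n = 3), and Hk2 took 25.6% ± 2.28, 24.1% ± 2.45 and 31.4% ± 2.65. The Hk2 share was 29.4%, 30.5% and 34.4% in Tsc2 siRNA libraries and lay above all control (23.3% to 27.8%) and all Chd8 siRNA libraries (22% to 26.8%), a separation that was picked out after its values were seen. Pfkp was the leading phosphofructokinase with 68.8% ± 4.17, 66.1% ± 5.35 and 72.1% ± 6.45. Aldoa made up at least 99.4% of aldolase and Ldha at least 90% of lactate dehydrogenase counts in every library. Slc16a3 took 66.3% ± 9.09 of the lactate carrier counts in control, 63.4% ± 8.77 in Chd8 siRNA and 58.4% ± 10 in Tsc2 siRNA libraries. Of the 10 comparisons of the leading isozyme, over 5 families, the lowest two-sided exact permutation p was 0.3 (adjusted p = 0.75), and p = 0.1 is the smallest this design allows. That test does not use the replicate number. In every same-number pair, Tsc2 siRNA shares were above control for Pfkp and Ldha and below it for Slc16a3. Chd8 siRNA shares were above control for Hk3 and Ldha in every pair. Under Tsc2 siRNA, number 2 was nearly tied for Pfkp (64.8% against 64.4%) and Ldha (94% against 93.9%). In the other comparisons the direction changed between pairs, and no direction was tested. Without division by length the Pfkp share under Chd8 siRNA differed from control in the other direction, also within the spread.

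**Figure D5:**
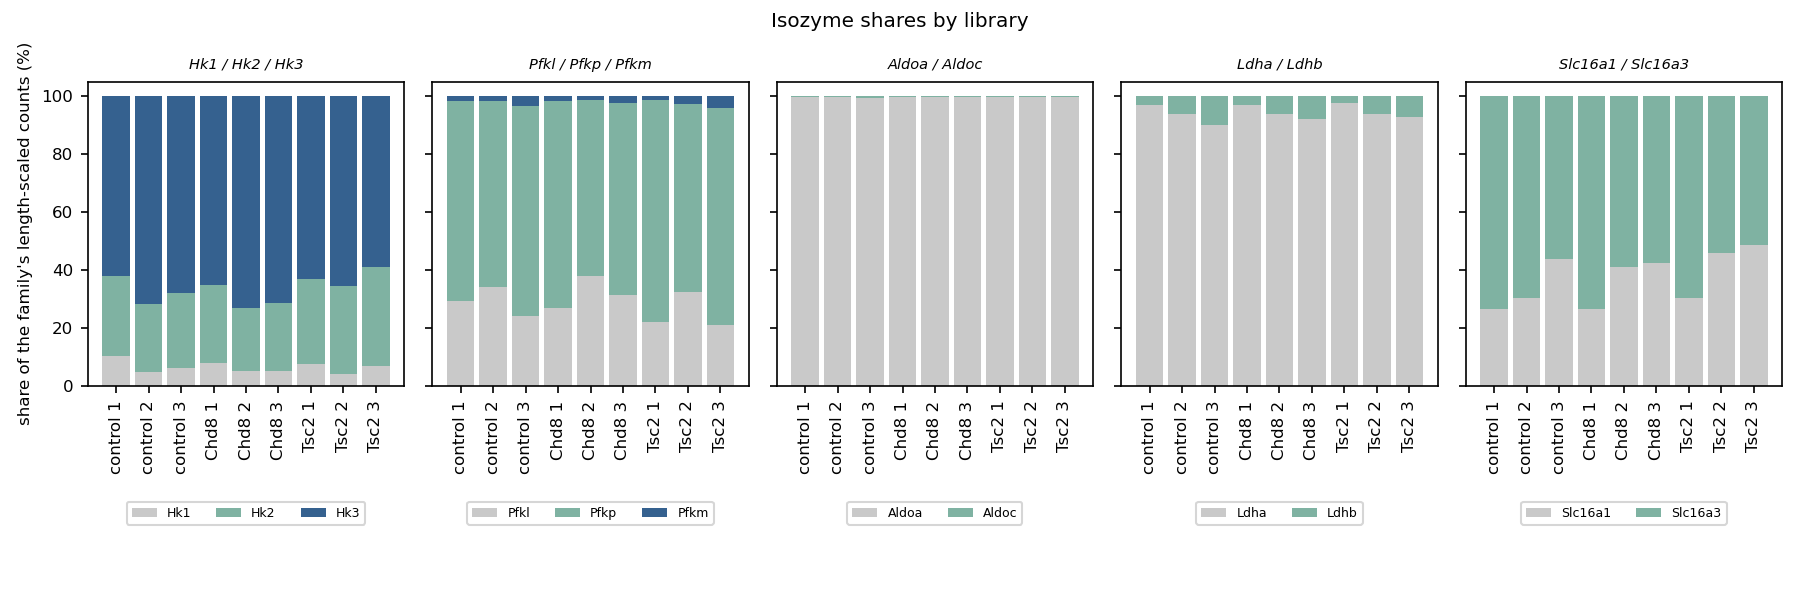
Share of each family's length-scaled counts (y axis, percent) taken by its isozymes in each of the 9 libraries, named by siRNA and replicate number on the x axis. Hk3, Pfkp, Aldoa, Ldha and Slc16a3 lead in every library, with Slc16a3 between 51.3% and 73.5%.

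Neighbouring pathways were read from 6 further lists, and 0 of their genes were called in any comparison, with or without the block. The other glycolytic genes (12 of 22 tested) had median log2 fold changes of 0.04 under Chd8 siRNA and 0.13 under Tsc2 siRNA, and Tigar, a phosphatase that slows glycolysis, was at 4.56 ± 1.36 CPM in Tsc2 siRNA and 3.4 ± 0.343 CPM in control libraries (SD, n = 3), not called. Genes of pyruvate entry and its regulation (12 of 14 tested) had medians of 0.07 and 0.03. The pentose phosphate branch (8 of 9 tested) had medians of -0.26 and -0.22, beside -0.02 for all genes. Its dehydrogenase Pgd, which makes NADPH, was at 221 ± 7.1 CPM in Chd8 siRNA and 279 ± 30.5 CPM in control libraries (SD, n = 3), without overlap and not called (log2 -0.34, edgeR adjusted p = 1.00, and 0.0499 with the block, under a fold change of 1.5). In Tsc2 siRNA libraries Pgd was at 237 ± 3.65 CPM and Tkt, the transketolase, at 83.2 ± 0.393 CPM against 96.4 ± 10.6 CPM in control, again without overlap and not called.

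The HIF machinery (13 of 13 tested) had medians of -0.03 and 0.05, and Hif1an, the asparagine hydroxylase of HIF, was at 22 ± 1.37 CPM in Chd8 siRNA and 27 ± 2.72 CPM in control libraries (SD, n = 3) without passing the test. Higher in all Tsc2 siRNA than in all control libraries, and not called, were Rbx1, at 23.9 ± 1.22 against 19.5 ± 1.16 CPM, and Eloc, at 37.8 ± 4.63 against 28.7 ± 5.42 CPM (SD, n = 3), both subunits of the VHL ubiquitin ligase. Epas1, which encodes HIF2 alpha, was at 7.48 ± 1.81, 5.98 ± 1.88 and 8.92 ± 2.69 CPM in Chd8 siRNA, Tsc2 siRNA and control libraries. Of the other HIF targets (30 of 34 tested; medians 0.04 and 0.01), the peptide hormone Adm was at 20.9 ± 6.97 CPM in Tsc2 siRNA and 11.9 ± 4.08 CPM in control libraries (log2 0.81 ± 0.30 (SE, n = 3), edgeR adjusted p = 1.00). Gbe1, the glycogen branching enzyme, was at 15.8 CPM in each knockdown and at 23.6 ± 5.99 CPM in control, with log2 fold changes of -0.58 in each comparison, not called. In the same list, Angptl4, a secreted inhibitor of lipoprotein lipase, was at 0.226, 0.493 and 0.815 CPM in control and at 0.0335, 0 and 0.0411 CPM in Chd8 siRNA libraries, all below 3 counts in the latter. It had the lowest unadjusted p of that list under Chd8 siRNA (0.0032, edgeR adjusted p = 1.00). Pgf, a growth factor related to Vegfa, had at most 3 counts in all control libraries (0.0858 to 0.123 CPM) and at 0.234 to 0.576 CPM in Chd8 siRNA and 0.128 to 0.703 CPM in Tsc2 siRNA libraries, not called. Among the mTORC1 controllers (11 of 11 tested; medians -0.06 and -0.02), Rptor, a core subunit of mTORC1, was at 84.2 ± 8.59, 105 ± 3.74 and 94.3 ± 5.3 CPM in Chd8 siRNA, Tsc2 siRNA and control libraries, and Deptor, an mTOR inhibitor, at 2.85 ± 0.417, 3.29 ± 0.411 and 4.71 ± 1.38 CPM (SD, n = 3), neither called.

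Several members have processed pseudogenes that share their sequence, and salmon had to divide such reads. Of the 31-base words in the most counted transcript, 84.1% of those of Gapdh, 77.2% of Eno1, 68.3% of Pgk1, 50.9% of Pkm and 42.1% of Pgam1 also occur in another gene. The counts of the genes sharing over 5% of these words were 3.44% of the Gapdh count, 0.365% for Eno1, 0.00163% for Pgk1, 7.36% for Pkm (mostly Gm49759) and 9.54% for Pgam1 (Pgam1-ps2). How far the division of shared reads moved the members' levels was not tested. A second Aldoa entry held 0.00723% of the counts of the main entry and was left out. Genes on the opposite strand overlap several members, such as Senp1 at Pfkm and Pitrm1 at Pfkp, and the strand setting of the counting was not given in the sources used here.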

How the data were processed

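Reads had been quantified by the authors with salmon 0.14.1 on mm10 and passed through tximport, and the deposited table holds estimated counts for each transcript and library, not normalised. Estimated counts were summed to genes with GENCODE mouse release 21 (139852 of 140948 transcripts matched; 0.27% of counts did not) and rounded. The library kit differs between the sources: an Illumina total RNA preparation in the methods, a stranded SMARTer kit in the labels. In R 4.3.3, genes were filtered with filterByExpr, scaled by TMM and tested with edgeR 4.0.16 (quasi-likelihood, all 9 libraries, siRNA as the only factor, Benjamini-Hochberg adjustment over 16273 genes, called at an FDR under 0.05 and at least 1.5-fold). DESeq2 1.42.0, limma-voom (limma 3.58.1), other scalings and filters, the replicate block and leaving out each library were alternatives. CPM in the text are TMM-scaled. Intervals are 95% and cover the spread between libraries, which may be technical in part. A count of 3 equals 0.0878 to 0.191 TMM-scaled CPM, for counting error only.

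For the block, libraries were paired by the replicate number in their titles. Deviations from group means correlated at 0.24 to 0.52 between libraries of the same number and at -0.38 to 0.04 between others. Deviations within a group sum to 0 for each gene, so the low values between others are partly built in. Each same-number value passed the threshold for pairing set before the calls of the fits were compared. The fit without the block was still kept as the main one. On simulated data, 38 of 100 genes changed by 1 on the log2 scale and 94 of 100 changed by 2 were recovered among 16273 genes in the Tsc2 siRNA comparison, with 15 false calls. The changed genes were drawn above a floor on mean level that Egln3, Ankrd37, Aldoc, Pfkm and Vegfa do not reach. The simulated libraries were independent, with no effect of replicate number. Exact permutation tests were done with scipy 1.17.1 (Python 3.11.15). The members and lists were chosen with earlier results of these data known. All 32 members are named; of the other lists, the genes named come from the 2 higher and 2 lower with the lowest p in each comparison.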

Additional observations from a re-analysis of the deposited data

Results flagged for a closer look

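For 3 of the 32 members (9.38%), Chd8 siRNA libraries all moved one way from the control library of the same number and Tsc2 siRNA libraries all moved the other way, as did 1.48% of all genes. The direct difference, Tsc2 siRNA against Chd8 siRNA, was 0.28 for Pfkp, 0.47 for Pfkm and -0.13 for Pgk1 on the log2 scale. None passed edgeR's test of that difference (adjusted p = 1.00 for each, and 0.139, 0.672 and 0.562 with the replicate block). Pfkm rested on 22 to 122 counts a library. It was nearly tied with control for Chd8 siRNA in number 1 (1.44 against 1.47 CPM) and for Tsc2 siRNA in number 3 (3.57 against 3.56 CPM). Pgk1 was at 298, 316 and 284 CPM in Chd8 siRNA and at 293, 309 and 278 CPM in control libraries, so these pairs also lay close together.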

How the results depend on the processing

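No member was called under any alternative in any comparison. The count over all genes moved from 0 to 87, 63 and 36 (Chd8 siRNA against control, Tsc2 siRNA against control, Tsc2 siRNA against Chd8 siRNA) with the replicate block, to 8, 4 and 2 with DESeq2's Wald test, and to 2 and 1 in the knockdown comparisons with no count filter. Chd8 itself was called with the block and not without it, and the block changed no other call described here. The median log2 fold change of the members ranged from -0.14 to 0.04, from -0.14 to -0.00 and from -0.15 to 0.05 (the latter without Chd8 siRNA replicate 1) when 1 library was left out, and in the third comparison was -0.04 with library totals only and -0.04 on protein-coding transcripts only. Members at an FDR of 0.05 in the block fit of Tsc2 siRNA with no fold threshold numbered 1 (Pkm), and 0 to 3 without 1 library. Of 511 member values in each comparison, 54, 48 and 30 had the opposite sign to the reported value, none of them called. Low counts limit Egln3, Ankrd37, Aldoc, Pfkm and Vegfa.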
